A study of Mus musculus with 12 samples.

Results

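The microRNAs described here come from a pair of loci tied to the sterol-responsive transcription factor SREBP2. They are both arms of miR-33, mmu-miR-33-5p and mmu-miR-33-3p, and the guide arms of the miR-183 cluster, mmu-miR-182-5p, mmu-miR-183-5p and mmu-miR-96-5p. Members were taken by name from the deposited table, which gave 5 of 1906 mature microRNA names, each read from 1 locus. The table held raw read counts from the livers of Crl:CD1(ICR) mice, an outbred laboratory stock, at 8 weeks of age. There were 6 male and 6 female livers, untreated as far as the labels say, with 1 small RNA library per liver. The sexes were compared to find microRNAs whose abundance differs between male and female liver. Housing and batches are not described in the labels, so a p-value weighs a sex difference only against the spread over these animals.

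SREBP2 switches on the genes of cholesterol synthesis and uptake when cells run short of sterols. miR-33 is made from an intron of Srebf2, the gene of SREBP2 itself, and miR-33-5p represses the cholesterol exporter ABCA1 and enzymes of fatty acid oxidation. The miR-183 cluster, with miR-96 and miR-182, is transcribed as a common precursor and is a known target of SREBP2. Its products miR-182 and miR-96 repress Fbxw7 and Insig2, which limit SREBP activity. The cluster is also abundant in sensory cells of the retina and inner ear.

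The mature sequences are given because they set which products can be mistaken for each other and which share targets. They are written 5′ to 3′ with the seed, bases 2 to 8, in capitals, and were taken from RefSeq (GRCm38.p6), where all 5 members were matched.
miR-182-5p: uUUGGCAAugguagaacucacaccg
miR-96-5p: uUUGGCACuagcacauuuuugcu
miR-183-5p: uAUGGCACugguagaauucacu
miR-33-5p: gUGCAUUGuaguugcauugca
miR-33-3p: cAAUGUUUccacagugcaucac

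Counted from position 1 at the 5′ end, miR-182-5p and miR-96-5p shared bases 2 to 7 and differed in the seed by A8C, written from miR-182-5p to miR-96-5p. miR-183-5p carried A8C and also U2A against miR-182-5p, so its seed matched that of neither partner in full. Over 22 bases compared without gaps, miR-182-5p and miR-183-5p were the same at 18, or 81.8%, and the differences were U2A, A8C, C17U and A22U. The longest stretch that they shared was 8 bases. miR-96-5p resembled miR-182-5p less, with 52.2% of 23 bases the same. The arms of miR-33 shared no more than 33.3% of bases with any product of the cluster. Of 1679 mature names in the RefSeq table, none other had the full seed of miR-33-5p, miR-182-5p or miR-183-5p, and only miR-1271-5p, which did not pass the filter on low counts, had that of miR-96-5p.

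The hairpins show where the arms lie. Capitals mark the mature 5p and 3p arms, in that order.
Mir33: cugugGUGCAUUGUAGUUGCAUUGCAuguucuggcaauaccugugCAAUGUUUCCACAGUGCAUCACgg
Mir182: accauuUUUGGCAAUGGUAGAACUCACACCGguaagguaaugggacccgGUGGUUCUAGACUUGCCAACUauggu
Mir96: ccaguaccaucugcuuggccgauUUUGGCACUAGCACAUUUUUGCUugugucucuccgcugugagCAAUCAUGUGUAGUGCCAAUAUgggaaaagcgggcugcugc
Mir183: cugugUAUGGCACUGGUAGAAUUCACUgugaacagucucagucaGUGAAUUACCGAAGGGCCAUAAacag

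In the coordinates of the deposited table (mm9), miR-182-5p lies on chromosome 6 at 30115962 to 30115986, miR-96-5p at 30119506 to 30119528 and miR-183-5p at 30119711 to 30119732. The start of miR-96-5p is 3544 bases from that of miR-182-5p, and that of miR-183-5p is 3749 bases from it. miR-33-5p lies on chromosome 15 at 82028557 to 82028577 and miR-33-3p at 82028597 to 82028618. In the GENCODE annotation of GRCm38, Mir33 stands in an intron of Srebf2 on the same strand. Mir182, Mir96 and Mir183 stand in no annotated gene there, with Nrf1 and Ube2h the nearest protein-coding genes. No locus of another name overlapped any of the members.

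Total counts per liver ranged from 2953955 to 5516430. After a filter on low counts 419 names were tested, and 71 of them, or 16.9%, differed between the sexes by edgeR's quasi-likelihood test at a Benjamini-Hochberg adjusted p under 0.05, with 35 higher and 36 lower in males. In 8.11% of tested names the sexes did not overlap. Levels are given as CPM, the count relative to the library size after TMM scaling. A count of 3, taken as the floor, was worth 0.530 to 1.04 CPM, which covers counting error only. miR-122-5p, the defining microRNA of hepatocytes, averaged 319000 ± 8682 CPM over the males, against 343000 ± 22760 CPM over the females (SD, n = 6 each). Male 1 lay lowest among the males for each of the 5 members.

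In every liver the members stood in the same order of level, miR-182-5p above miR-183-5p, miR-96-5p, miR-33-5p and miR-33-3p. Mature microRNAs are read whole, so these levels need no scaling by length, although adapter ligation favours some sequences over others. Over the 12 livers, the ranges of miR-182-5p and miR-183-5p overlapped among males but not among females, and so did those of miR-183-5p and miR-96-5p. The ranges of miR-96-5p and miR-33-5p overlapped among females but not among males. Among the 419 tested names, miR-182-5p ranked 118 by mean CPM, miR-183-5p 164, miR-96-5p 197 and miR-33-5p 258.

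The 3 products of the miR-183 cluster were on average higher in males and miR-33-5p was lower, but none of the 4 tested members passed the threshold. These are whole livers, in which fewer cells of a type and less RNA per cell cannot be told apart. The background was 16.9% of tested names called. At an unadjusted p under 0.05, 3 of the 4 passed, miR-182-5p, miR-183-5p and miR-96-5p, as did 29.4% of all tested names. DESeq2 and edgeR's exact test each called 2, miR-182-5p and miR-96-5p, against backgrounds of 20.3% and 16.9% of tested names, and limma-voom called 0, against 16.7%. The sexes overlapped in all 4. The plot of levels by liver shows where they did.

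**Figure D1:**
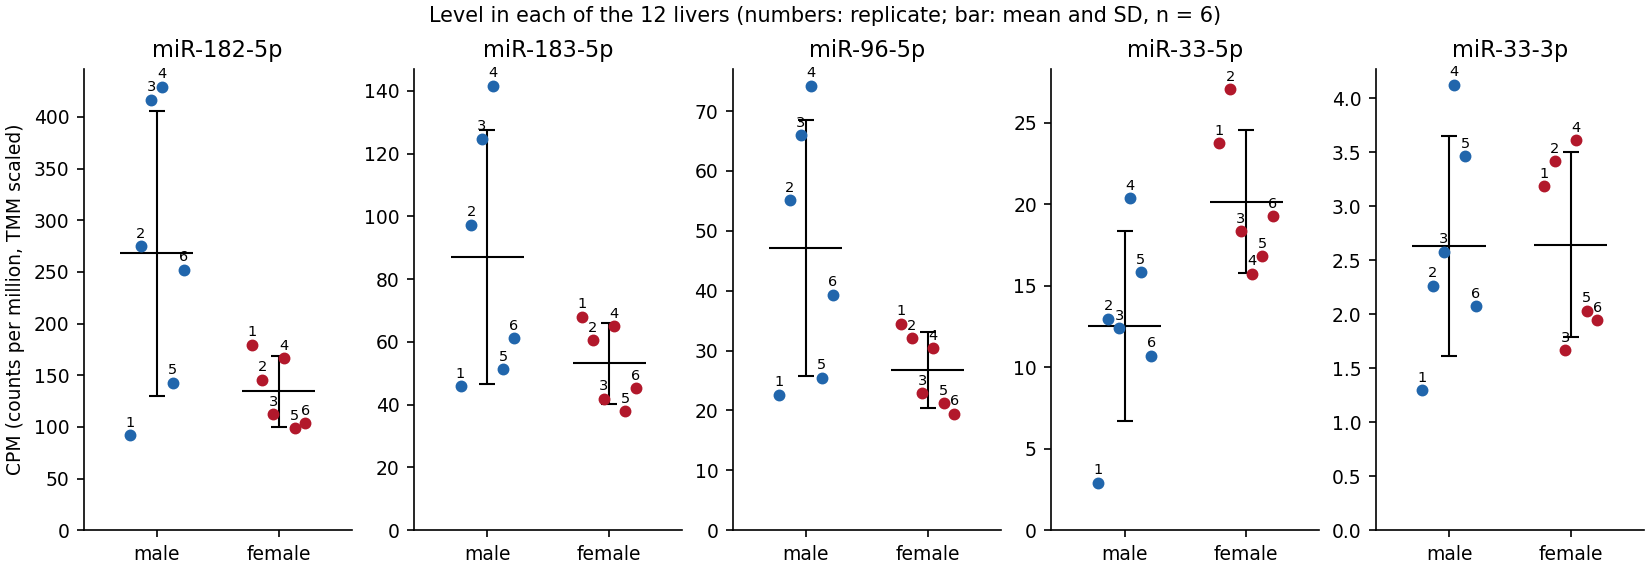
CPM of the 5 members in each liver, males on the left and females on the right of each panel, with the replicate number beside each point; horizontal lines and bars are the mean and SD (n = 6), and each panel has its own scale from 0. For the 3 cluster products, males 2, 3 and 4 lie above every female, while males 1 and 5 lie within or below the female range; for miR-33-5p, male 1 lies lowest at 2.91 CPM.

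miR-182-5p, which represses the ubiquitin ligase subunit gene Fbxw7, was the most abundant member. It had 92.3, 275, 417, 429, 143 and 252 CPM in males 1 to 6, against 180, 146, 113, 166, 98.7 and 103 CPM in females 1 to 6. Males 2, 3, 4 and 6 lay above every female, male 5 lay within the female range and male 1 below every female. The mean was 268 ± 138 CPM over the males, against 134 ± 34.4 CPM over the females (SD, n = 6 each). On the log2 scale the male over female fold change was 1.00 (SE 0.33, 95% confidence interval 0.28 to 1.71), or 2.00-fold, with an adjusted p = 0.0542 by edgeR's quasi-likelihood test. The authors' deposited table gives miR-182-5p a log2 fold change of 1.04 and an FDR of 0.0404, with 2.35% of its 2044 loci under 0.05.

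miR-96-5p, which represses Insig2 and whose seed variants cause hearing loss, behaved alike at a lower level. Its CPM were 22.7, 55.2, 66.0, 74.3, 25.5 and 39.4 in males 1 to 6, against 34.5, 32.1, 22.9, 30.5, 21.2 and 19.4 in females 1 to 6. The same 4 males lay above every female, and males 1 and 5 lay within the female range. Males averaged 47.2 ± 21.4 CPM and females 26.8 ± 6.36 CPM, a log2 fold change of 0.82 (SE 0.29, interval 0.20 to 1.45, adjusted p = 0.0695 by edgeR). The authors' deposited table has a log2 fold change of 0.86 and an FDR of 0.107.

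miR-183-5p, the product nearest to miR-182-5p in sequence, had 46.0, 97.4, 125, 142, 51.4 and 61.1 CPM in males 1 to 6. Females 1 to 6 had 68.1, 60.5, 41.9, 65.0, 38.0 and 45.2 CPM. Here males 2, 3 and 4 lay above every female and the other 3 males within the female range. Males averaged 87.1 ± 40.4 CPM and females 53.1 ± 12.9 CPM. The log2 fold change of 0.72 (SE 0.28, interval 0.10 to 1.33) had an adjusted p = 0.104 by edgeR. In the authors' deposited table it is 0.76 with an FDR of 0.22.

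miR-33-5p, the arm that represses ABCA1, was on average lower in males. It had 2.91, 13.0, 12.4, 20.4, 15.8 and 10.7 CPM in males 1 to 6, against 23.8, 27.1, 18.3, 15.7, 16.8 and 19.3 CPM in females 1 to 6. Females 1 and 2 lay above every male, and males 1, 2, 3 and 6 lay below every female. Male 1 had 9 counts, where the other livers had 31 to 109. Males averaged 12.5 ± 5.81 CPM and females 20.2 ± 4.37 CPM, which gave a log2 fold change of -0.67 (SE 0.31, interval -1.35 to 0.00, adjusted p = 0.171 by edgeR). The authors' deposited table gives -0.63 and an FDR of 0.538.

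miR-33-3p, the rarer arm of the same hairpin, did not pass the filter. Its counts were 4, 11, 10, 17, 14 and 6 in males 1 to 6 and 13, 13, 7, 14, 7 and 11 in females 1 to 6, and the sexes overlapped almost throughout. In CPM it had 2.63 ± 1.02 in males and 2.64 ± 0.854 in females. Fitted with no filter, it had a log2 fold change of 0.08 (SE 0.33, adjusted p = 0.949 by edgeR over 1292 names).

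**Figure D2:**
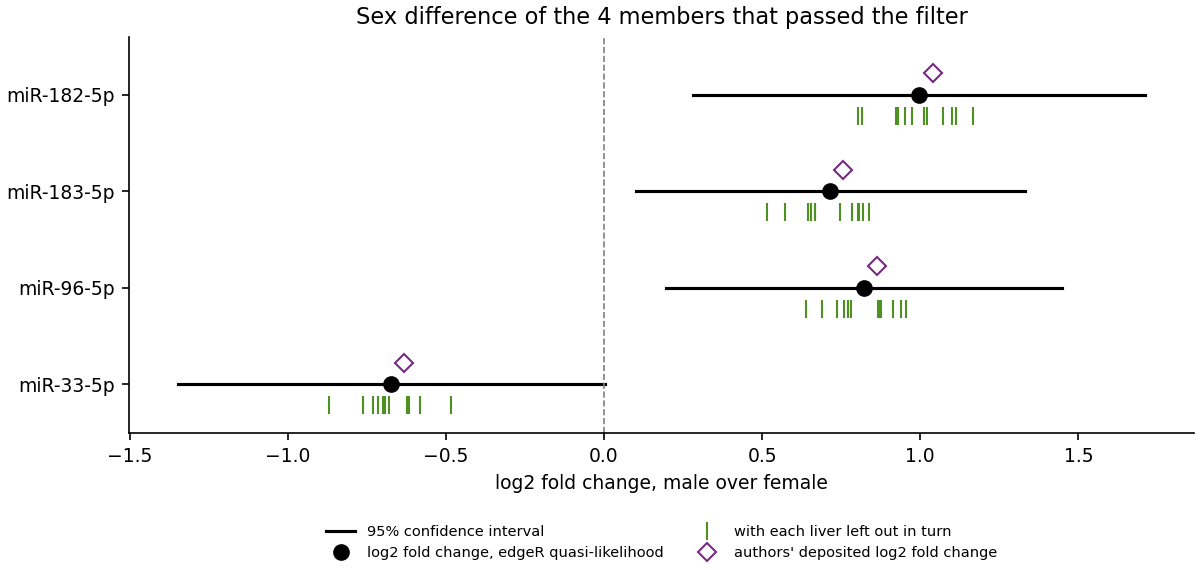
Log2 fold change of male over female (x axis) for the 4 members tested: black points and lines are the edgeR estimates with 95% confidence intervals, green ticks the estimates with each liver left out in turn, and open diamonds the authors' deposited values. The cluster products lie right of 0 and miR-33-5p lies left of it in every estimate drawn.

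The calls of the cluster turned on single livers. Without male 1, miR-182-5p (log2 fold change 1.17, adjusted p = 0.00756), miR-96-5p (0.96, adjusted p = 0.0222) and miR-183-5p (0.84, adjusted p = 0.0427) all passed edgeR's test, where 19.3% of tested names were called. Without male 5, miR-182-5p and miR-96-5p passed (adjusted p = 0.0412 for both, 15.4% of names called). They did not pass without any other single liver. With male 1 and male 4 both left out, miR-182-5p (adjusted p = 0.0176), miR-96-5p (0.046) and miR-33-5p (-0.62, adjusted p = 0.0363) passed by edgeR, with 19.8% of names called. Male 1 was the lowest and male 4 the highest male for each member, so leaving both out narrows the male spread by choice. The SE of miR-33-5p fell from 0.31 to 0.19, and these calls are no support for a sex difference. With no filter on low counts, miR-182-5p (adjusted p = 0.0107) and miR-96-5p (0.0279) passed, with 4.18% of names called.

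The 3 cluster products varied together from liver to liver, as products of a common precursor can. Over the 12 livers, log2 CPM of miR-182-5p and miR-96-5p correlated with a Pearson r of 0.978 (100000 permutations, p = 1e-05, the smallest that they can give, adjusted over 10 pairs of members p = 5e-05) and a Spearman rho of 0.965 (adjusted permutation p = 0.0001). miR-183-5p and miR-96-5p had an r of 0.975 (adjusted permutation p = 5e-05) and a rho of 0.93 (adjusted permutation p = 0.0001), and miR-182-5p and miR-183-5p an r of 0.954 (adjusted permutation p = 6.67e-05) and a rho of 0.93 (adjusted permutation p = 0.0002). Without the 2 livers farthest from the median of the first-named product, these r were 0.95, 0.941 and 0.886. Within males they were 0.972, 0.98 and 0.932 (n = 6, exact permutation test, adjusted p = 0.0104 each). Within females they were 0.957, 0.918 and 0.971 (n = 6, exact permutation test, adjusted p = 0.104, 0.16 and 0.104).

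**Figure D3:**
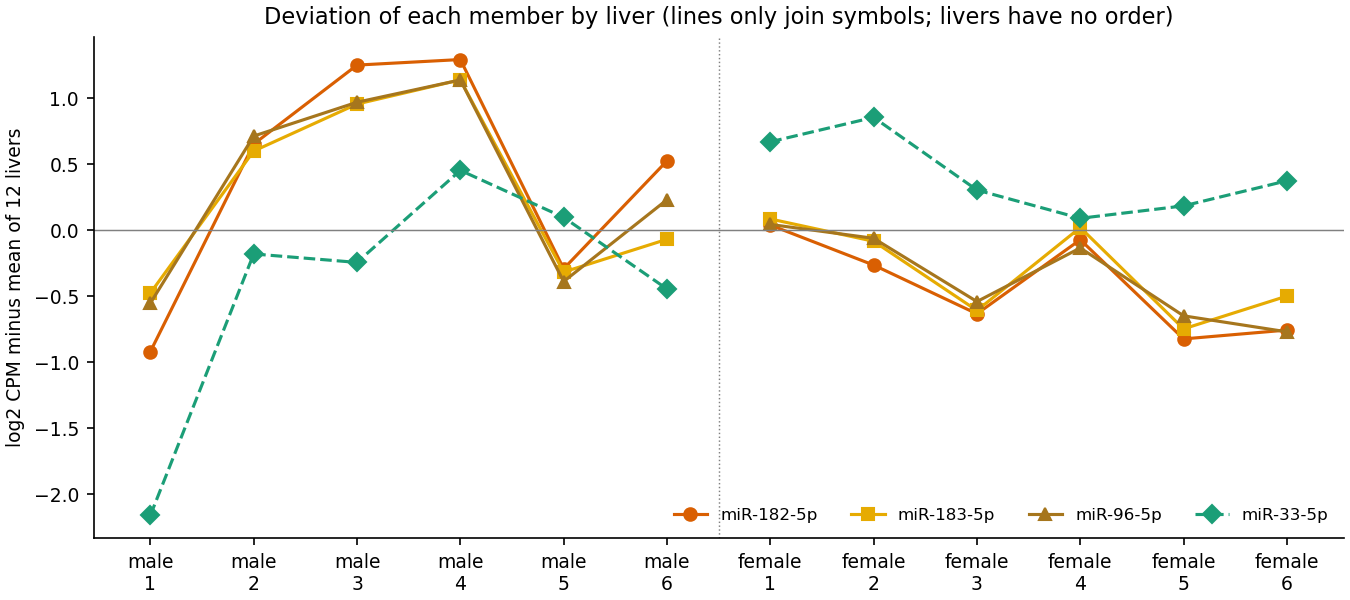
Log2 CPM of miR-182-5p, miR-183-5p, miR-96-5p and miR-33-5p minus the mean of each over the 12 livers (y axis), by liver, males left and females right; lines only join the symbols of a microRNA. The 3 cluster products move together in both sexes, and in all females miR-33-5p lies above its mean while the cluster lies near or below its own.

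For miR-33-5p, no correlation with a cluster product passed, either over both sexes or within a sex. With miR-182-5p its r was 0.16 (adjusted permutation p = 0.757) and its rho 0.021 (adjusted permutation p = 0.956), and r was -0.355 without the 2 livers farthest from the median of miR-33-5p. Within males r was 0.735 and within females 0.376 (n = 6 each, exact permutation test, adjusted p = 0.167 and 0.433), and without male 1 it was -0.377 over the other livers. With miR-183-5p and miR-96-5p, r was 0.131 and 0.109 (adjusted permutation p = 0.757 each). Within males these r were 0.629 and 0.643 (n = 6, exact permutation test, adjusted p = 0.192 each). Within females they were 0.45 and 0.527 (n = 6, exact permutation test, adjusted p = 0.433 each). Every r of miR-33-5p with a cluster product within a sex was thus positive, and none passed. The r over both sexes also takes in the mean sex difference, which ran opposite ways in miR-33-5p and the cluster. The arms of miR-33 correlated with an r of 0.637 (adjusted permutation p = 0.0382) and a rho of 0.357 (adjusted permutation p = 0.368). Within males r was 0.922 and within females 0.369 (n = 6 each, exact permutation test, adjusted p = 0.0104 and 0.433). The relation over all livers rested on few of them, since r was 0.272 without the 2 farthest and 0.371 without male 1. For miR-33-3p with the 3 cluster products, r was 0.477 to 0.54 and rho 0.587 to 0.657, and no adjusted permutation p passed. Within males r was 0.51 to 0.585 (n = 6, exact permutation test, adjusted p = 0.287 to 0.317). Within females it was 0.882 to 0.919 (n = 6, exact permutation test, adjusted p = 0.16 each). Without the 2 livers farthest from the median of miR-33-3p, r over both sexes was 0.168 to 0.302. The counts of miR-33-3p were only 4 to 17 per liver.

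The microRNAs nearest in pattern were named as the 3 with the highest r over the 12 livers among the other tested names. For each cluster product they were the other 2 products and then miR-101b-3p, a microRNA much more abundant in these livers, with an r of 0.758 to miR-182-5p, 0.73 to miR-96-5p and 0.695 to miR-183-5p. Within females the r of miR-101b-3p to the 3 products was -0.194 to -0.0748, where within males it was 0.725 to 0.788. For miR-33-5p they were miR-32-5p (0.932), miR-194-5p (0.915), a hepatocyte microRNA, and miR-872-5p (0.898). Without male 1 these were 0.664, 0.546 and 0.606. In the same order, r was 0.974, 0.944 and 0.937 within males and 0.836, 0.25 and 0.422 within females.

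The spread among males was wider than among females for the 4 tested members. From the lowest to the highest male, miR-182-5p differed 4.65-fold, against 1.82-fold in females, and miR-33-5p 6.99-fold against 1.72-fold. The SD of log2 CPM was 0.87 in males and 0.37 in females for miR-182-5p, 0.71 in males and 0.34 in females for miR-96-5p, 0.68 in males and 0.36 in females for miR-183-5p, and 0.91 in males and 0.29 in females for miR-33-5p. Males were the more variable sex in 329 of the 419 tested names, with a median ratio of SD of 1.57, so the direction of this difference was common to most of the table. Among names with a mean within 2-fold of the member's, a larger male SD was found in 5 of 71 for miR-182-5p, 10 of 68 for miR-183-5p, 13 of 84 for miR-96-5p and 16 of 114 for miR-33-5p. A larger female SD was found in 3, 7, 19 and 50 of the same names, in the same order of members. Without male 1, the male SD of miR-33-5p was 0.35, while that of miR-182-5p was 0.65, of miR-183-5p 0.63 and of miR-96-5p 0.62. The wide spread of miR-33-5p thus rested on male 1 and that of the cluster did not.

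**Figure D4:**
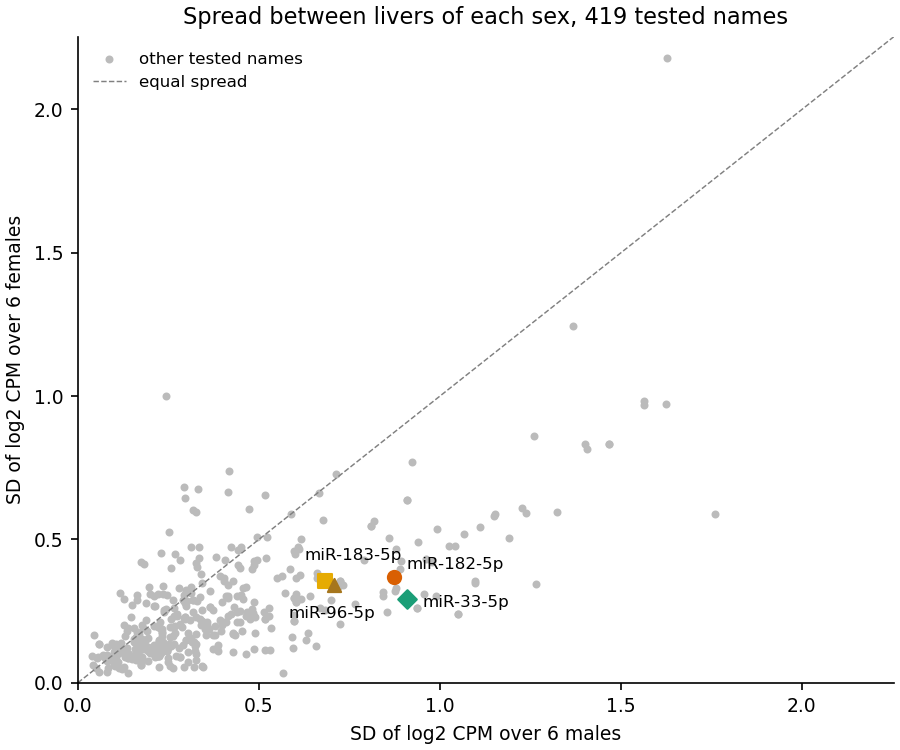
SD of log2 CPM over the 6 males (x axis) against the 6 females (y axis) for the 419 tested names, with the 4 tested members as coloured symbols and equal spread as the dashed line. All 4 members lie below the line, as do most names, with male SD from 0.68 to 0.91 and female SD from 0.29 to 0.37.

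The shares of the products within the cluster varied less, relative to their means, than its amount. Summed over the 3 guide arms, the cluster gave 402 ± 198 CPM in the 6 males, against 214 ± 53.2 CPM in the 6 females (SD). Of these counts miR-182-5p took 65.6 ± 4.79% in males and 62.6 ± 1.11% in females, miR-183-5p 22.4 ± 3.70% in males and 24.8 ± 1.20% in females, and miR-96-5p 12.02 ± 1.23% in males and 12.5 ± 0.852% in females. In females the share of miR-182-5p stayed between 61.2% and 63.7%. In males it was lowest in male 1, at 57.3% of 497 counts (exact binomial 95% interval 52.9 to 61.7%), and highest in male 6, at 71.5% of 1021 counts (68.6 to 74.3%). Male 1 had the smallest cluster output of the males and male 6 a middle one.

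Ratios of counts within a liver, taken with 0.5 added to both, do not depend on the scaling between libraries, and 5 were compared. The ratio of miR-182-5p to miR-183-5p had a geometric mean of 2.94 in males and 2.52 in females (exact two-sided permutation test, p = 0.156, adjusted over the 5 ratios p = 0.26). That of miR-182-5p to miR-96-5p was 5.45 in males, against 4.99 in females (exact permutation test, adjusted p = 0.288), and that of miR-183-5p to miR-96-5p 1.85 in males and 1.98 in females (exact permutation test, adjusted p = 0.288). In the first of these, 5 males lay above every female and male 1 below every female. Without male 1 the log2 difference in the ratio of miR-182-5p to miR-183-5p was 0.34 (exact permutation test, adjusted p = 0.0108) and to miR-96-5p 0.21 (adjusted p = 0.0352), both higher in males. Male 1 was the lowest of all livers in both ratios, so leaving it out was bound to widen these differences. In the ratio to miR-183-5p it left the sexes fully apart, where the raw p is the smallest this test can give. The values without male 1 are thus no support for a sex difference in these ratios.

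The ratio across the loci, miR-182-5p to miR-33-5p, differed between the sexes. It was 30.1, 21.1, 33.3, 20.9, 8.97 and 23.2 in males 1 to 6, against 7.53, 5.36, 6.11, 10.5, 5.82 and 5.35 in females 1 to 6. The lowest male, male 5, lay below female 4 only, and the other 5 males lay above every female. Geometric means were 21.2 in males and 6.57 in females, a log2 difference of 1.69, or 3.23-fold (exact two-sided permutation test, p = 0.00433, adjusted over 5 ratios p = 0.0216). With each liver left out in turn the adjusted p stayed between 0.0108 and 0.0325 by the same exact permutation test. With replicate numbers taken as blocks it was 0.156 by a sign-change test, at the smallest raw p that this test can give, 0.0312. The ratio joins the opposite average sex differences of the 2 members, neither of which passed alone, so it is not independent of them.

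**Figure D5:**
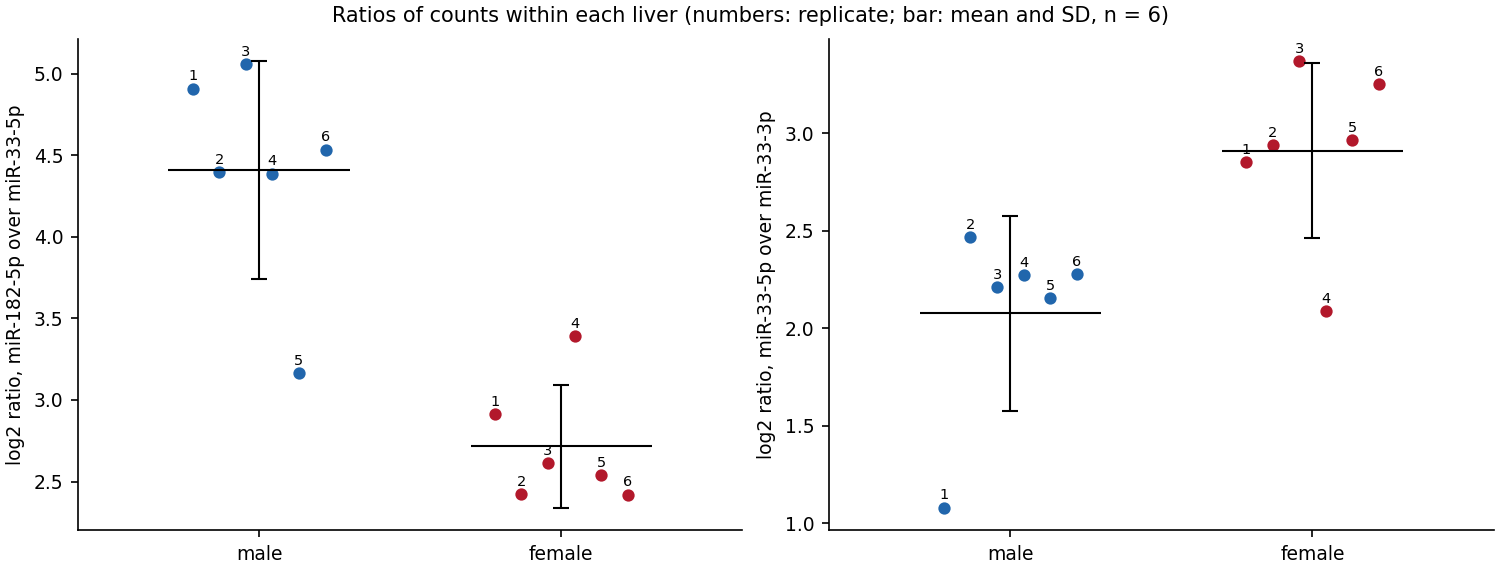
Log2 of the ratio of miR-182-5p to miR-33-5p counts (left) and of miR-33-5p to miR-33-3p counts (right) in each liver, males left and females right in each panel, with replicate numbers; lines and bars are the mean and SD (n = 6). In the left panel 5 males lie above every female, and in the right panel male 1, at 1.08, lies below all other livers.

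The balance of the miR-33 arms also differed. The ratio of miR-33-5p to miR-33-3p was 2.11, 5.52, 4.62, 4.83, 4.45 and 4.85 in males 1 to 6, against 7.22, 7.67, 10.3, 4.24, 7.80 and 9.52 in females 1 to 6. Of the females, 5 lay above every male, and female 4 lay below 5 of the males. Geometric means were 4.21 in males and 7.52 in females, a log2 difference of -0.83 (exact two-sided permutation test, p = 0.013, adjusted over 5 ratios p = 0.0325). The counts of miR-33-3p were 4 to 17 per liver, so each ratio carries a large counting error; in male 1, 9 of 13 miR-33 counts were from the 5p arm (69.2%, exact binomial 95% interval 38.6 to 90.9%). The adjusted p was 0.0649 when any 1 of females 1, 2, 3, 5 and 6 was left out, and 0.0595 without males 1 and 4, by the same exact permutation test.

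The 3p arms of the cluster hairpins were near the floor of detection. Over all 12 livers, miR-182-3p had 9 counts against 9646 of its 5p arm, miR-183-3p 16 against 3391 and miR-96-3p 4 against 1777. The 3p arm thus made up 0.0932% of the miR-182 hairpin's counts, 0.470% of the miR-183 hairpin's and 0.225% of the miR-96 hairpin's (exact binomial 95% intervals 0.0426 to 0.177%, 0.269 to 0.762% and 0.0612 to 0.574%). For miR-33 it was 13.6% (11.5 to 16.0%). At counts this low the 3p arms of the cluster did not pass the filter, and no sex differences are given for them.

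Markers of the cell types that a liver can hold were read as lists. The list of biliary and other epithelial microRNAs (the miR-200 family, miR-31-5p and miR-203-3p) had 7 of 7 tested and 0 called by edgeR, with a summed level of 3148 to 10300 CPM in males and 4889 to 10750 CPM in females. It was 3148, 7959, 10300, 6762, 5333 and 7511 CPM in males 1 to 6. Males 1 and 5 were lowest in this sum and in the cluster, while male 4, highest in the cluster, lay below males 2, 3 and 6 in the sum. The sum was 10750, 7032, 4889, 7387, 6352 and 7116 CPM in females 1 to 6. Female 1 and then female 4 were highest in both the sum and the cluster. Female 6, next in the sum, lay below females 2 and 3 in the cluster. The list of sensory, neuroendocrine and pancreatic microRNAs summed to 1914 to 3978 CPM in males and 1313 to 1915 CPM in females, nearly all of it miR-7a-5p, which rose in males (log2 fold change 0.66, adjusted p = 0.0212 by edgeR), while miR-375-3p (1.52, adjusted p = 0.245) and miR-9-5p (0.28, adjusted p = 0.847) did not pass. Male 6 was highest in it, not the males with most of the cluster. The immune list summed to 205 to 507 CPM in males, lowest in male 1, and to 378 to 518 CPM in females. Male 1 was also the lowest male in the hepatocyte and endothelial sums. It was the highest male in the erythroid list, which summed to 828 to 3476 CPM in males and 1637 to 2423 CPM in females. The same held for the stellate and fibroblast list, with 9399 to 14960 CPM in males and 13960 to 16690 CPM in females. Of the listed markers of hepatocytes, immune, erythroid and endothelial cells none was called, though erythroid miR-144-3p came near (-0.72, adjusted p = 0.0531 by edgeR). Outside the list, the other arm of an immune hairpin, miR-142a-5p, was lower in males (-0.47, adjusted p = 0.0256 by edgeR). Another such arm, miR-223-5p, was not called (-0.05, adjusted p = 0.9 by edgeR). Of 4 stellate and fibroblast markers miR-143-3p fell in males (-0.34, adjusted p = 0.0263 by edgeR). No list held a marker at 0 in every liver. The part of these cells in the levels above was not tested.

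Other microRNAs of cholesterol and SREBP regulation were read from a list of 26 names that included repressors of ABCA1, the LDL receptor, SREBPs and the HDL receptor SR-BI. Of 41 tested arms, 5 rose and 2 fell in males by edgeR's test, with a median log2 fold change of 0.05, against 35 and 36 of all 419 with a median of -0.02. Those that rose were miR-455-5p (1.29, adjusted p = 0.000768), which represses SR-BI, miR-455-3p (1.13, adjusted p = 0.000398), miR-21a-5p (1.06, adjusted p = 0.000153), miR-21a-3p (1.02, adjusted p = 0.021) and miR-29a-3p (0.51, adjusted p = 0.000667). miR-34a-5p (-0.77, adjusted p = 0.0294), a target of p53, and miR-106b-5p (-0.46, adjusted p = 0.00584), which represses ABCA1, fell. The other arms tested, like the members of both SREBP2-linked loci, did not pass.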

How the data were processed

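For 12 mouse livers the authors deposited whole-number counts of small RNA reads at 2044 mature microRNA loci, not normalized, 1 column per liver. Per the submitters' processing notes, Trim Galore, Bowtie2, bedtools, edgeR and build mm9 were used; no source used here gives settings, versions or the microRNA annotation. The table also holds the authors' deposited log2 fold change of male over female, log2 CPM, p-value and FDR.

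Loci of the same name were summed to 1906 names. In R 4.3.3, edgeR 4.0.16 scaled libraries by TMM, filtered with filterByExpr (419 names left) and compared the sexes with glmQLFit and glmQLFTest, with Benjamini-Hochberg adjusted p under 0.05 as the call. Log2 CPM used a prior count of 2 and log2 ratios an offset of 0.5. Alternatives were DESeq2 1.42.0, limma 3.58.1 (voom), edgeR's exact test, other scaling and filters, and leaving out livers. Exact permutation tests used every arrangement of the livers.

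Named are the 5 members, the other arms of their hairpins, the 3 names most like each tested member by Pearson's r, and every listed cholesterol microRNA past the threshold. The members and lists were chosen with earlier results of these data known.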

Additional observations from a re-analysis of the deposited data

Results flagged for a closer look

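Of 22 sets of 6 livers examined for a liver far from the rest, 2 held one, where chance gives about 1 in 20. The log2 ratio of miR-33-5p to miR-33-3p was 1.08 in male 1, far below the other males, and rested on 9 and 4 counts. The log2 ratio of miR-182-5p to miR-33-5p was 3.16 in male 5, far below the other males, which lay between 4.39 and 5.06.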

How the results depend on the processing

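The direction of miR-182-5p, miR-183-5p, miR-96-5p and miR-33-5p was kept under every alternative run, and the calls were not. The number of members past the threshold, 0, was 2 with no filter, with DESeq2 and with edgeR's exact test. It was 3 without males 1 and 4, and 0 to 3 with each liver left out. Males 1 and 4 were the lowest and highest males for each member, so the calls without them come from a male spread narrowed by choice. The log2 fold change of miR-182-5p passed at 1.05 with no filter, 1.01 with DESeq2, 1.00 with the exact test and 1.026 without males 1 and 4; that of miR-96-5p passed at 0.87, 0.83, 0.82 and 0.81; that of miR-33-5p passed at -0.62 without males 1 and 4. With each liver left out they lay between 0.80 and 1.17 for miR-182-5p, 0.64 and 0.96 for miR-96-5p, 0.52 and 0.84 for miR-183-5p, and -0.87 and -0.49 for miR-33-5p. That of miR-33-3p, near 0, was -0.0908 with total counts alone and -0.13 to 0.19 with each liver left out. With total counts the median over all names was -0.12, against -0.02 with TMM, and 26 names were called higher and 58 lower in males, against 35 and 36; 47 names were called without male 3, against 71.

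Among the log2 differences in ratios, miR-33-5p over miR-33-3p was -0.63 without males 1 and 4 and lost its call, and ranged from -0.9996 to -0.64 with each liver left out. miR-182-5p over miR-183-5p was 0.35 without males 1 and 4 and passed, with a range of 0.13 to 0.34, and over miR-96-5p it ranged from 0.0818 to 0.21. Male 1 was the lowest of all livers in both of these ratios, so the pass followed from its removal. Without males 1 and 4, the correlations of miR-33-5p were 0.311 with miR-33-3p, losing its call, and -0.597, -0.39 and -0.488 with miR-182-5p, miR-183-5p and miR-96-5p. Causes were not tested.

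Livers of the 2 sexes share replicate numbers, but same-numbered livers did not deviate together (correlations -0.127 to 0.302, and 0 of 6 males closest to their own number), so the numbers were not taken as pairs. With the replicate block, 48 names and 0 members were called. The ratios kept their log2 differences of 1.69 and -0.83. Their calls were lost by the sign-change test (adjusted p = 0.156 for both), whose 64 sign changes give no raw p below 0.0312. miR-182-5p over miR-33-5p had that smallest raw p, with which 1 ratio alone of 5 cannot pass, so its loss is not informative. For miR-33-5p over miR-33-3p the raw p of the sign-change test was 0.0625, above that limit. The counting error was 9.58% to 33.3% of the count per liver for miR-33-5p and 24.3% to 50% for miR-33-3p, against 2.38% to 5.92% for miR-182-5p.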
